A study of Rattus norvegicus with 6 samples.

Results

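miR-378a is a microRNA (miRNA) hairpin inside Ppargc1b, the gene of the transcriptional coactivator PGC-1beta, and it yields a mature strand from each of its arms, miR-378a-3p and miR-378a-5p (rno-miR-378a-3p and rno-miR-378a-5p in the table). Both strands were taken by name from the table of counts per mature miRNA in vesicles of rat plasma, so that 2 of 764 listed miRNAs are described here, and both passed the filter on low counts that kept 362. Small extracellular vesicles are shed by cells as small membrane sacs and circulate in blood. Each library held RNA of 18 to 30 nucleotides from the vesicles in 2 ml of plasma of male wild-type Sprague-Dawley rats, an outbred strain. The rats were obtained at 6 to 8 weeks of age, and the sample labels list no age at plasma collection. The control group of 3 libraries came from control rats, for which no injection is given in the labels. The diabetic group of 3 libraries came from rats at 8 weeks of diabetes after intraperitoneal streptozotocin at 65 mg/kg, which kills the pancreatic beta cells that make insulin. Rats counted as diabetic when their fasting glucose exceeded 11.1 mmol/L. The labels do not say whether each library came from 1 animal, so that p-values measure the spread between these libraries, which may in part be technical.

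A miRNA guides a repressor complex to messenger RNAs, mainly by pairing of its seed, bases 2 to 8 from the 5′ end. PGC-1beta works with nuclear receptors such as the estrogen-related receptors to drive genes of mitochondria and fatty acid oxidation, and miR-378a is transcribed with it from an intron. The hairpin is known in skeletal muscle, heart, liver and brown fat. In mice, its 2 strands were reported to repress the carnitine acetyltransferase Crat and the Mediator subunit Med13, and animals without them resisted obesity on a fatty diet. The 3p strand was also reported to repress the catalytic subunit of phosphatidylinositol 3-kinase, Pik3ca, in mouse liver, which ties it to insulin signalling.

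The mature sequences are shown because the strands differ in their seeds, given in capitals, and so in the messages they can pair with. They come from RefSeq for the rat build GRCr8, where both lie on the minus strand of chromosome 18, the 3p strand at chr18:57128925-57128945 and the 5p strand at chr18:57128962-57128983, within the bounds of Ppargc1b.
miR-378a-3p: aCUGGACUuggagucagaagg
miR-378a-5p: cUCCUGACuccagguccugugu
The 3p strand has 21 bases and the 5p strand 22. Paired head to tail, bases 4 to 17 of the 5p strand form an unbroken run of 14 pairs with bases 4 to 17 of the 3p strand when G-U pairs are allowed. The longest unbroken run of Watson-Crick pairs only is 9, between bases 4 to 12 of the 5p and 9 to 17 of the 3p strand. Of the 689 listed miRNAs with a RefSeq sequence, no other carried the seed of either strand. The family member miR-378b was not among these, so its seed was not compared.

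Both strands were at a higher level in all 3 diabetic libraries than in any control library, but neither difference passed the threshold over all miRNAs. By share of counts, 32.6% of the 362 tested miRNAs were likewise higher in every diabetic library, and 13.3% after the scaling described below. The dominant strand, miR-378a-3p, was counted 38396, 64928 and 57145 times in control replicates 1, 2 and 3. In diabetic replicates 1, 2 and 3 it was counted 216352, 174943 and 217118 times. These are 0.43%, 1.04% and 0.874% of all miRNA counts of the control libraries and 2.89%, 2.30% and 2.58% of those of the diabetic libraries, with exact 95% binomial intervals no wider than 2.88% to 2.90%. Control replicate 1 was the lowest library, and the groups did not overlap. By its count in each library miR-378a-3p ranked 26th, 20th and 20th in the control libraries, and 8th, 8th and 7th in the diabetic ones. It thus belonged to the abundant vesicle miRNAs in both groups.

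To compare libraries, counts were divided by library sizes scaled by TMM, the trimmed mean of M values, which assumes that most miRNAs do not differ, and are given as normalized CPM, on the scale of counts per 1e+06. On this scale the levels of miR-378a-3p were 5359, 10618 and 12449 normalized CPM in the control libraries, and 22674, 18118 and 23035 in the diabetic libraries, in order of replicate number. The lowest diabetic library lay above the highest control library. The means were 9475 ± 3681 and 21276 ± 2740 normalized CPM (SD, n = 3 each), a 2.25-fold difference or a log2 fold change of 1.17 (SE 0.39). In edgeR's quasi-likelihood test the unadjusted p was 0.0133 and the Benjamini-Hochberg adjusted p 0.121, above the threshold of 0.05. Of the 362 miRNAs tested, 1.66% passed that threshold, 0.552% as higher. An unadjusted p under 0.05 with a higher level, which both strands had, occurred in 11% of them.

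The minor strand, miR-378a-5p, was rare. Control replicates 1, 2 and 3 held 47, 56 and 21 counts of it, and diabetic replicates 1, 2 and 3 held 194, 136 and 236. These counts were 6.56, 9.16 and 4.57 normalized CPM in the control libraries, against 20.3, 14.1 and 25.0 in the diabetic libraries. The highest control library and the lowest diabetic library, both replicate 2, were again apart. The means were 6.76 ± 2.30 and 19.8 ± 5.49 normalized CPM (SD, n = 3 each), a 2.91-fold difference in the fit or a log2 fold change of 1.54 (SE 0.42). In edgeR's quasi-likelihood test the strand ranked 17th of 362, its unadjusted p being 0.004 and its adjusted p 0.0853. miR-378a-3p ranked 38th. Groups that did not overlap, with the diabetic libraries higher, were found for 13.3% of all tested miRNAs on this scale.

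**Figure D1:**
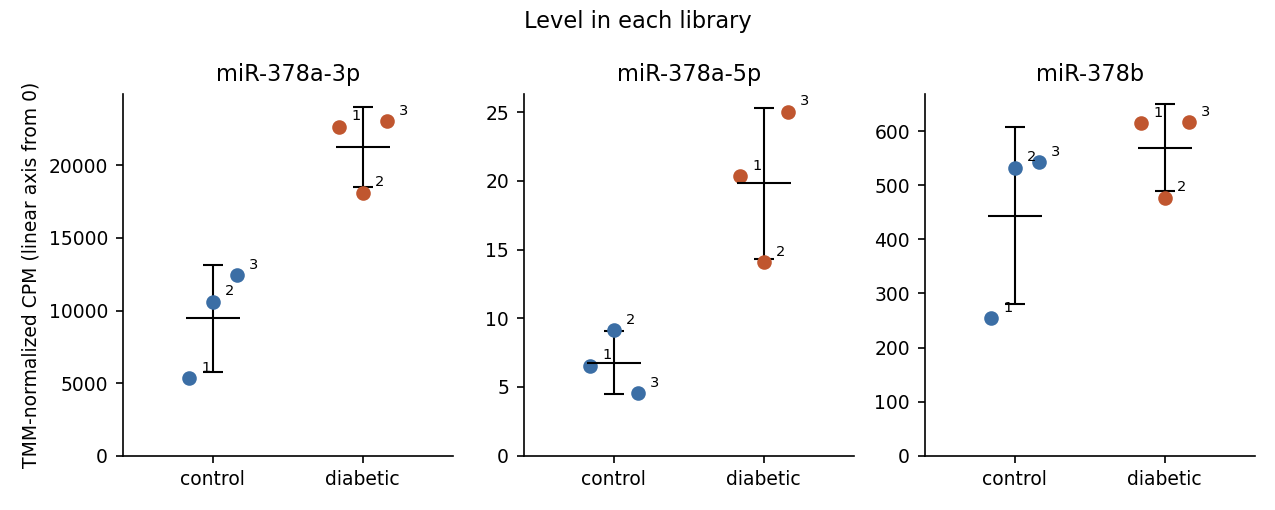
TMM-normalized CPM (linear axes from 0) of miR-378a-3p, miR-378a-5p and miR-378b in each of the 6 libraries, with the replicate number beside each point and the mean ± SD of 3 libraries as bars. The diabetic points lie above all control points for both miR-378a strands, at 18118 to 23035 against 5359 to 12449 for 3p, whereas those of miR-378b overlap on this scale (in CPM, with no TMM factor, they do not).

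The size of the difference depended on how the libraries were scaled. Per 1e+06 deposited counts, with no TMM factor, miR-378a-3p stood at 7806 ± 3146 CPM in control and 25914 ± 2932 CPM in diabetic libraries (SD, n = 3 each), a 3.32-fold ratio, and miR-378a-5p at 5.81 ± 2.91 and 23.96 ± 5.36 CPM, a 4.12-fold ratio. With library size as the only scaling both strands passed edgeR's quasi-likelihood test (adjusted p 0.0317 for each), with log2 fold changes of 1.73 and 2.04. In that fit 12.4% of all miRNAs were called higher, 13.5% in either direction, and the median log2 fold change of all miRNAs was 0.61, against 0.02 with TMM. The TMM factors were 0.702 to 0.978 in control and 1.12 to 1.27 in diabetic libraries. In the authors' deposited table, whose fold change is also the ratio of mean CPM, the log2 fold changes were 1.73 and 2.04 and the false discovery rates 0.0122 and 0.0070 for the 3p and the 5p strand. That table had a false discovery rate under 0.05 for 11.1% of the 566 miRNAs with a count, 10.1% as higher.

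The tests differed on the 5p strand. DESeq2 gave miR-378a-5p a log2 fold change of 1.49 with an adjusted p of 0.0237, and edgeR's exact test an adjusted p of 0.0251 at 1.54. These tools called 11.6% and 8.29% of all miRNAs in either direction, or 4.97% and 3.59% as higher. miR-378a-3p missed the threshold in both, with an adjusted p of 0.0749 and 0.0846. Under each of the 17 alternatives tried, the log2 fold change of both strands stayed above 0, from 0.86 to 1.73 for miR-378a-3p and from 1.26 to 2.04 for miR-378a-5p.

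**Figure D2:**
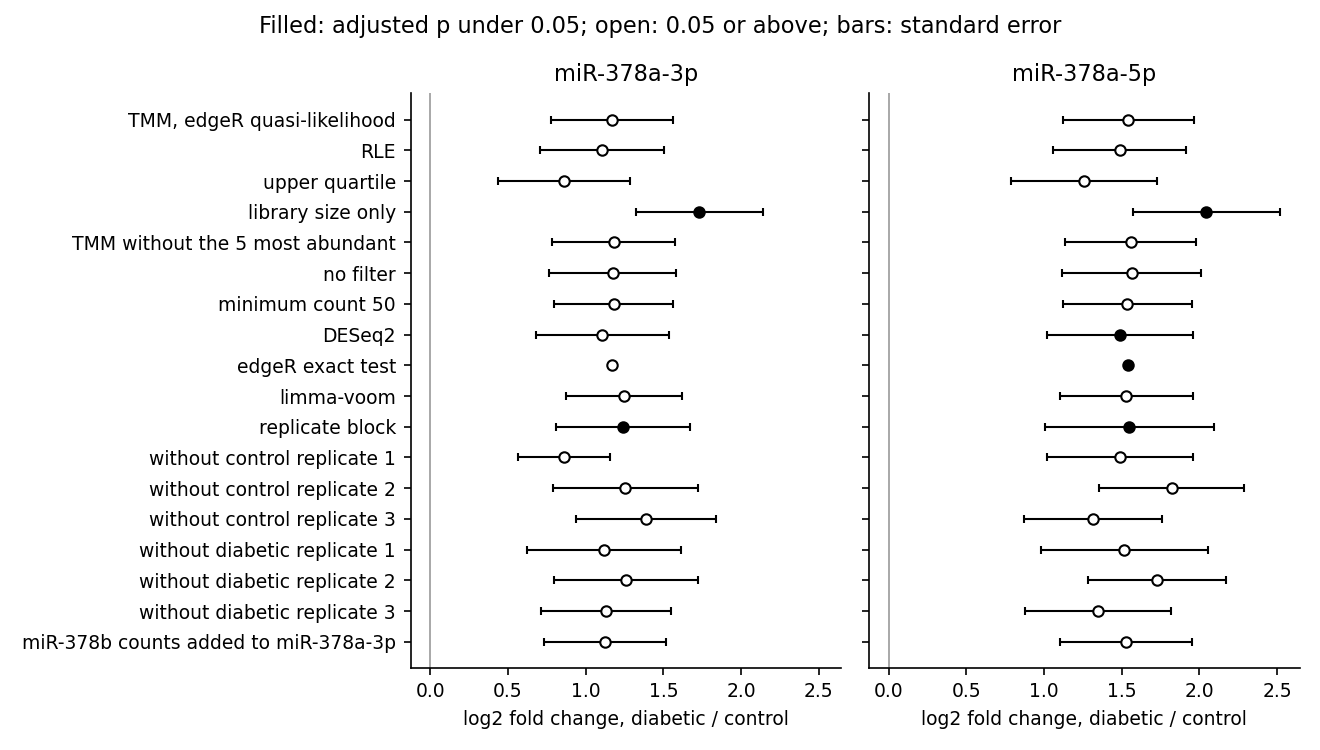
Log2 fold change of diabetic over control libraries for each miR-378a strand in the TMM fit and under 17 alternatives, with standard errors as bars (none for edgeR's exact test). Filled points have an adjusted p under 0.05, as with library size only at 1.73 and 2.04, and all points lie to the right of 0.

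Since the 5p strand was so rare, the share of both strands together was 0.781% ± 0.315 in control and 2.59% ± 0.294 in diabetic libraries (SD, n = 3 each), a difference of 1.81 percentage points. A two-sided exact permutation test over libraries gave p = 0.1, the smallest that 3 against 3 can give. In CPM, groups without overlap and with the diabetic libraries higher were found for 32.6% of tested miRNAs. With the 5 most abundant miRNAs taken out of the total the difference was 3.37 percentage points, with the same exact p of 0.1.

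The balance of the strands, which does not depend on library scaling, did not separate the groups. Per count of miR-378a-5p the control libraries held 817, 1159 and 2721 counts of miR-378a-3p, and the diabetic libraries 1115, 1286 and 920. The 5p strand was 0.122%, 0.0862% and 0.0367% of the hairpin's counts in control, with exact 95% intervals of 0.0898% to 0.162%, 0.0651% to 0.112% and 0.0227% to 0.0561%. In diabetic libraries it was 0.0896%, 0.0777% and 0.109%, all within the range of the control libraries. Control replicate 3, with 21 counts of the 5p strand, was the library apart.

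The log2 ratio of 3p to 5p was 10.40 ± 0.88 in control and 10.10 ± 0.24 in diabetic libraries (SD, n = 3 each), a difference of -0.31 (SE 0.49). limma over the 95 hairpins with both strands tested gave an adjusted p of 0.683, and the two-sided exact permutation test p = 0.8. Without control replicate 3 the difference was 0.18. Among the 95 hairpins 11.6% had a called difference in strand ratio and 37.9% had groups that did not overlap. The ratio rose in miR-200b (difference 2.19), miR-193b (2.47) and miR-23a (2.39), and fell by 2.11 in miR-340, by 2.38 in miR-145 and by 1.29 in miR-148a, on the log2 scale. The strand bias of miR-378a ranked 11th of 95 by size, and it was 1 of 11 hairpins biased more than 1000-fold. The median hairpin had a log2 bias of 3.51 in one or the other direction.

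**Figure D3:**
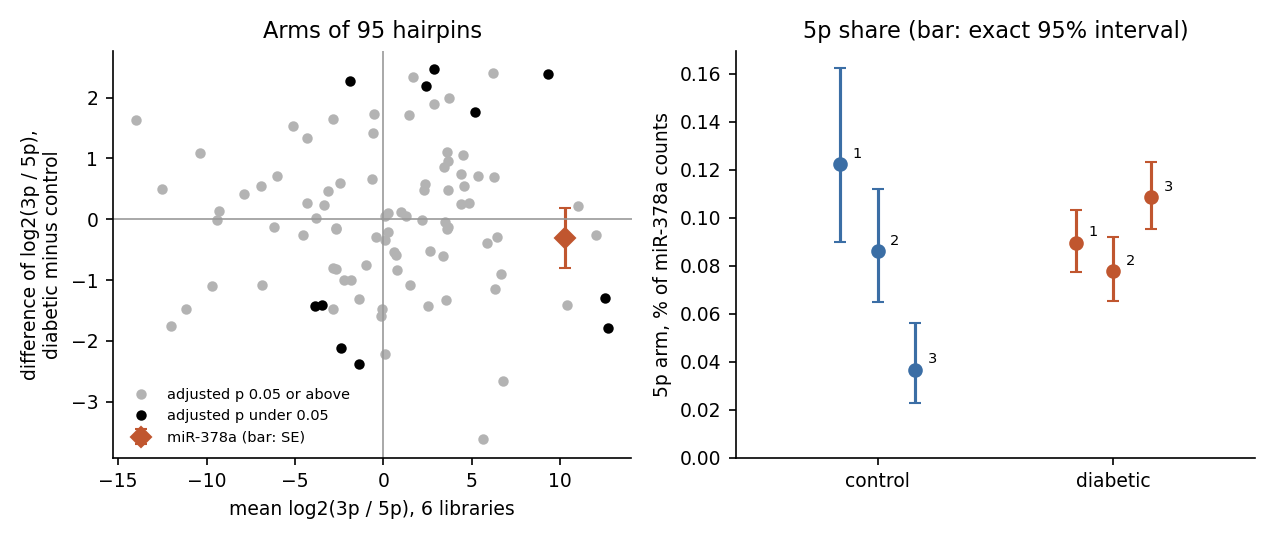
Left, the difference of log2(3p/5p) between diabetic and control libraries against its mean over 6 libraries for 95 hairpins, with miR-378a as a diamond at -0.31 with its SE. Right, the 5p strand as a percentage of miR-378a counts in each library with exact 95% binomial intervals, where the diabetic libraries (0.0777% to 0.109%) lie inside the range of the control libraries.

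One other listed miRNA carries the family name, miR-378b, encoded at another locus on chromosome 5 of GRCr8. How reads that match both were assigned is not given in the sources used here, so the split between miR-378b and miR-378a-3p is uncertain. The levels of miR-378b were 254, 533 and 543 normalized CPM in the control libraries, against 615, 477 and 617 in the diabetic libraries, and the groups overlapped on this scale. Its means were 443 ± 164 and 569.9 ± 80.2 normalized CPM (SD, n = 3 each). The log2 difference in the fit was 0.36 (SE 0.37), at an adjusted p from edgeR's quasi-likelihood test of 0.594. Per 1e+06 counts without TMM, miR-378b stood higher in every diabetic library, at 606 to 784 CPM against 204 to 521 CPM, a 1.88-fold ratio of the means. Its fitted log2 difference was then 0.91 (adjusted p 0.136 by the quasi-likelihood test of edgeR). With its counts added to those of miR-378a-3p, the log2 fold change of the sum was 1.12 (SE 0.39, adjusted p 0.13 in the same test).

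The ratio of miR-378b to miR-378a-3p was chosen for description after its values were seen. Per 100 counts of miR-378a-3p the control libraries held 4.75, 5.02 and 4.36 counts of miR-378b, and the diabetic libraries 2.71, 2.63 and 2.68. The exact 95% intervals reached from 4.19 to 5.20 over the control and from 2.56 to 2.79 over the diabetic libraries. The ratio was nearly constant within each group and lower in every diabetic library. The mean log2 ratio was -4.41 ± 0.10 in control and -5.22 ± 0.022 in diabetic libraries (SD, n = 3 each), and the difference of -0.81 had a two-sided exact permutation p of 0.1, the smallest possible. Of 361 other tested miRNAs, miR-378b had the smallest spread within groups in its log2 count ratio to miR-378a-3p, an SD of 0.0737 against a median of 0.733. A ratio to miR-378a-3p that was lower in every diabetic library was found for 51.5% of the 361.

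**Figure D4:**
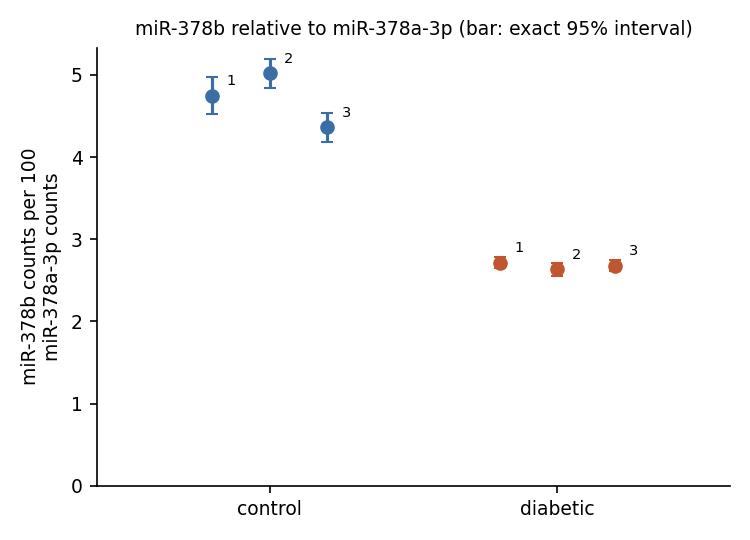
Counts of miR-378b per 100 counts of miR-378a-3p in each library, with replicate numbers and exact 95% binomial intervals that cover counting error only. The control libraries lie at 4.36 to 5.02 and the diabetic libraries at 2.63 to 2.71.

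In level, miR-378a-3p ranked 16th of 362 by its mean normalized CPM over the 6 libraries, 15376 ± 7085 (SD, n = 6). Its neighbours by this pooled mean were miR-191a-5p at 16073 ± 3314 and the islet miRNA miR-375-3p at 15014 ± 16493. Within groups the order differed: miR-378a-3p, at 9475 ± 3681 in control and 21276 ± 2740 in diabetic libraries, lay below miR-191a-5p in control (17164 ± 1999.8) and above it in diabetic libraries (14983 ± 4460; SD, n = 3 each). miR-375-3p varied widely, at 22000.2 ± 19860.3 and 8028 ± 11797 normalized CPM in the same order. The rank of miR-378a-3p by group mean was 21st in control and 9th in diabetic libraries. miR-378a-5p ranked 229th at 13.3 ± 8.08 normalized CPM, between miR-130a-3p at 13.4 ± 5.05 and miR-196b-5p at 12.9 ± 4.08 (SD, n = 6 each). By group mean it was 258th in control and 200th in diabetic libraries.

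The miRNAs whose pattern over the 6 libraries was most like that of each strand were found by the mean absolute difference in log2 CPM, after each miRNA's own mean was subtracted. Closest to miR-378a-3p were miR-5132-5p, miR-582-3p, miR-672-5p, miR-30a-5p and miR-429, at distances of 0.26, 0.28, 0.29, 0.31 and 0.34, against a median of 0.76 over 361 miRNAs. Closest to miR-378a-5p were miR-19b-3p, miR-181c-5p, miR-6319, miR-193b-3p and miR-324-5p, at 0.24, 0.25, 0.27, 0.28 and 0.31, against a median of 0.87. The strands were not each other's nearest: at a distance of 0.40, miR-378a-5p was 11th from miR-378a-3p, and miR-378a-3p was 8th from miR-378a-5p. miR-378b was 13th from miR-378a-3p and 67th from miR-378a-5p. None of these 10 miRNAs passed edgeR's quasi-likelihood test, which 1.66% of all 362 did. Their log2 fold changes were 0.67 to 1.37 in the first and 1.12 to 2.06 in the second set. Since likeness was measured across both groups, log2 fold changes above 0, as the strands had, follow from the choice and are no separate result.

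Other miRNAs of energy metabolism were read beside the hairpin in lists. Of miRNAs in introns of metabolic and myosin genes, 3 of 13 listed were tested and 0 were called, against 1.66% of all 362 tested. The cholesterol-linked miR-33, in an intron of Srebf2, reached at most 9 counts in a library and was not tested. The slow muscle miRNA miR-499-5p averaged 11.3 ± 3.47 normalized CPM in the control and 19.1 ± 4.30 in the diabetic group, and miR-107-3p, from an intron of the pantothenate kinase gene Pank1, at 26.3 ± 5.18 and 37.7 ± 5.08 (SD, n = 3 each). Their log2 fold changes were 0.77 (SE 0.39) and 0.52 (SE 0.35). The list's median of 0.52 compares with 0.02 over all 362 miRNAs, or 1.06 against 0.61 with library size only.

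Of miRNAs that promote brown fat, 17 of 20 listed were tested and 0 were called, against 1.66% of all 362 tested. So low a share leaves about 0 calls to be found in lists of this size. Their log2 fold changes had a median of -0.01, against 0.59 with library size only, and 8 of the 17 lay above 0. miR-193b-3p, a driver of brown fat differentiation in mice, averaged 13.1 ± 3.26 normalized CPM in the control and 36.6 ± 15.6 in the diabetic group (SD, n = 3 each), without overlap and with a log2 difference in the fit of 1.48 (SE 0.43). Its other strand, miR-193b-5p, named after its value was seen, was lower in every diabetic library, at -1.12 (SE 0.52). Of the 17, 3 were higher and 1 lower in every diabetic library, against 48 and 53 of all 362. miR-182 stood at 386 ± 205 and 145 ± 18.4 normalized CPM, with overlap, its fitted log2 difference being -1.41 (SE 0.46). Of miRNAs that restrain brown fat, 12 of 16 listed were tested and 0 were called, against the same 1.66%. The median log2 fold change of these 12 was 0.29, or 0.85 with library size only and -0.02 with upper quartile factors. Listed miRNAs entered with both strands. The log2 fold changes of miR-27b-5p, with 5 to 50 counts per library, and miR-27a-5p were 1.59 (SE 0.56) and -0.95 (SE 0.37), in opposite directions. The more abundant strands, miR-27b-3p and miR-27a-3p, averaged 3336 and 3941 normalized CPM over the 6 libraries. Their log2 fold changes were 0.16 and -0.31, and they were named after their values were seen. With library size only, 1, 1 and 2 members of the intron, brown fat promoting and brown fat restraining lists were called, against 12.4% of all miRNAs as higher.

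**Figure D5:**
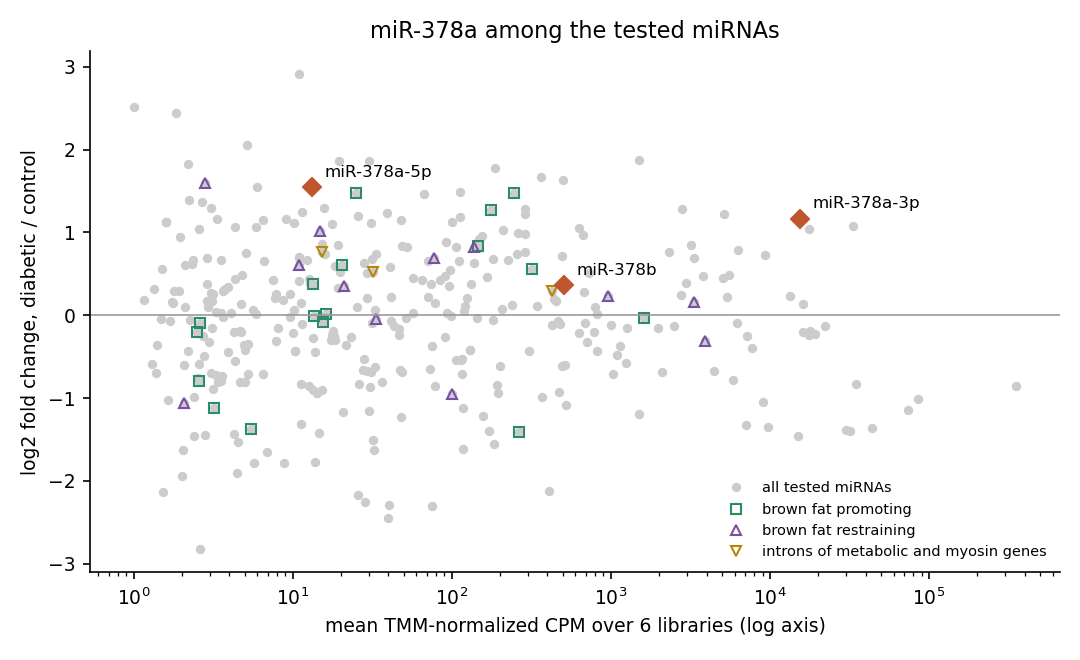
Log2 fold change of diabetic over control libraries against mean TMM-normalized CPM over 6 libraries (log axis) for 362 tested miRNAs, with the members of 3 metabolic lists as open symbols and the miR-378 family as diamonds. miR-378a-3p stands at 1.17 among the abundant miRNAs and miR-378a-5p at 1.54 among the rare ones. The brown fat lists spread over both sides of 0, and the 3 tested members of the intron list lie above 0.

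Markers of the cells that could contribute vesicle RNA were read beside these values, and in bulk samples more RNA per vesicle cannot be told apart from more vesicles of a source. Library totals were 6254077 to 8930730 counts. The 6 listed miRNAs of hepatocytes summed to 39268 to 299730 normalized CPM in control and 45373 to 75614 in diabetic libraries, and the 14 of striated muscle, of which 6 had no count in any library, to 1190 to 15179 and 2684 to 12910. The muscle markers thus overlapped between the groups, and the heart miRNAs miR-208a-3p and miR-208b-3p had at most 18 and 16 counts in a library. The 6 of platelets summed to 21286 to 26062 and 21829 to 28114 normalized CPM, and the 6 of leukocytes to 4806 to 9658 and 7385 to 8768, again with overlap. Most of the platelet sum was miR-191a-5p, with means of 17164 and 14983. Singly, 2 of the 6 platelet markers, miR-126a-3p and miR-126a-5p, were higher in every diabetic library by TMM, and 0 were lower. Of the hepatocyte and of the leukocyte markers 1 was lower and 0 higher, and of the tested muscle markers 0 were either. Over all 362 miRNAs 48 were higher and 53 lower. As shares of counts, however, the platelet markers were higher in every diabetic library, at 2.77% to 3.15% against 1.57% to 2.09%. So were the leukocyte markers, at 0.828% to 1.12% against 0.337% to 0.775%, and the share of miR-378a. In CPM, 32.6% of all tested miRNAs, taken singly, were higher in every diabetic library. The shares of hepatocyte markers (3.15% to 21.0% in control, 5.78% to 8.59% in diabetic libraries) and of muscle markers (0.0955% to 1.07% and 0.301% to 1.64%) overlapped. The sum of the 5 erythroid miRNAs moved with the groups, from 87438 to 187223 normalized CPM in control to 40223 to 72956 in diabetic libraries, without overlap. Most of this sum was miR-486, with means of 114853 in control and 56804 in diabetic libraries, followed by miR-451-5p at 10085 and 4010. Singly, 2 of the 5 were lower and 1, miR-144-5p, was higher in every diabetic library, against 53 and 48 of all 362. The log2 fold changes of miR-144-5p, miR-144-3p and miR-451-3p, named after their values were seen, were 0.52, -0.22 and -0.21. As a share of counts the erythroid sum did overlap, at 7.01% to 18.3% and 5.11% to 8.84%. The part of the erythroid, platelet and leukocyte markers in the higher level of miR-378a was not tested.

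With TMM scaling none of the tested markers passed edgeR's quasi-likelihood test, in which 1.66% of all miRNAs did. With library size only, 2 of 6 platelet and 1 of 6 striated muscle markers were called higher, and 0 of the hepatocyte, erythroid and leukocyte markers, against 12.4% of all miRNAs. By TMM, 1 of 6 hepatocyte, 1 of 5 erythroid, 4 of 6 platelet, 3 of 6 leukocyte and 3 of 6 muscle markers had a log2 fold change above 0, with medians of -1.04, -0.22, 0.44, 0.01 and 0.30, against 183 of 362 and 0.02 over all miRNAs. The pairs with the smallest p in each list were miR-122-3p and miR-192-5p for hepatocytes (log2 fold change -2.45 and -1.38), miR-451-5p and miR-486 for erythroid cells (-1.33 and -1.02), and miR-126a-5p and miR-191a-3p for platelets (1.19 and -1.22). For leukocytes they were miR-342-5p and miR-342-3p (-1.61 and -0.57), while miR-150-5p, miR-142-5p and miR-142-3p stood at 0.77, 0.38 and 0.22. For striated muscle they were miR-499-5p and miR-133b-3p (0.77 and 1.02), while miR-133a-5p, miR-206-3p and miR-1-3p stood at -1.05, -0.60 and -0.09. The members given after each of these last pairs were named after their values were seen.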

How the data were processed

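Small RNA of plasma vesicles was sequenced on an Illumina HiSeq 2500, per the labels' protocols, and the submitters' processing notes name rn6 as the build. No aligner, counter or treatment of reads that match several miRNAs was given in the sources used here. The authors deposited whole-number counts per mature miRNA, identical in both tables, and CPM values, group mean CPM, a log2 fold change, p-values and false discovery rates in one of them. The table's name gives the test as edgeR and the series text as DEGseq.

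The deposited counts entered every test. filterByExpr (minimum count 10, minimum total 15) kept 362 miRNAs, and the quasi-likelihood test of edgeR 4.0.16 in R 4.3.3 with TMM compared diabetic with control libraries, two-sided, with Benjamini-Hochberg adjustment over all 362 and a threshold of 0.05. A standard error is the size of the log2 fold change over the square root of F. Strand ratios, log2 of 3p over 5p counts with 0.5 added to each, were tested with limma 3.58.1 over 95 hairpins. Alternatives used other scalings, filters, pseudocounts, DESeq2 1.42.0, edgeR's exact test, limma-voom, a replicate block and 1 library fewer. Both fits across miRNAs were run on simulated data to see that known differences were recovered, which does not measure their error rates in these libraries.

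Totals of 6254077 to 8930730 counts per library set the precision, and exact binomial intervals cover counting error only, since PCR duplicates cannot be told from molecules. Named miRNAs were the strands, family or seed members, neighbours in level, the 5 most like each strand (log2 CPM, prior count 2), the 2 with the smallest p per list, and up to 3 hairpins per direction with a called ratio. The members and the 9 lists were chosen with earlier results of these data known.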

Additional observations from a re-analysis of the deposited data

How the results depend on the processing

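Both miR-378a strands kept their direction under each of 17 alternatives. They passed the threshold with library size only (log2 fold change 1.73 for 3p and 2.04 for 5p) and with a replicate block (1.24 and 1.55), and the 5p strand also with DESeq2 (1.49) and edgeR's exact test (1.54). With 1 library left out the values ran from 0.86 to 1.39 for 3p and from 1.31 to 1.82 for 5p, with adjusted p of 0.0795 to 0.317 and 0.0598 to 0.243 in edgeR's quasi-likelihood test. The replicate numbers have no stated link, so the block was not used for the reported values. Deviations of same-numbered libraries correlated at 0.28, 0.0012 and 0.25 across miRNAs, and those of differently numbered libraries at -0.42 to 0.077. Whether the numbers stand for a link was not tested. The count of called miRNAs was 6, against 49 with library size only, 2 with upper quartile factors, 42 with DESeq2, 30 with edgeR's exact test, 57 with the replicate block and 0 to 49 with 1 library left out, where the fits with 0 calls had 57 to 59 at an unadjusted p under 0.05. The strand ratio of miR-378a, -0.31, was -0.68 to 0.18 with 1 library left out and turned positive, at 0.18, without control replicate 3. Of 95 hairpins 11 had a called ratio, against 0 with no filter, 30 with the replicate block and 0 to 26 with 1 library left out. Among the neighbours in level, miR-375-3p stayed below 0 and miR-196b-5p above 0 under each of 17 alternatives. With library size only, miR-191a-5p (0.35) and miR-130a-3p (0.31) turned positive. miR-130a-3p, at -0.50 to 0.22 with 1 library left out, did so also without control replicate 1 (0.22). The cause of these changes was not tested. The share of both strands and the ratio of miR-378b to miR-378a-3p kept their direction, at 1.18 to 3.37 percentage points and at -0.87 to -0.77. With 21 to 56 counts per control library, counting error limits the 5p values.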
